A study of Mus musculus with 6 samples.

Results

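Fc receptors are the proteins through which cells read bound antibody, and the genes described here are the mouse receptors for immunoglobulin G (IgG), a signalling chain and a receptor relative that go with them, and the kinase Syk. The members were chosen by name, as the rows listed under Fcgr1, Fcgr2b, Fcgr3, Fcgr4, Fcer1g, Fcrls, Fcgrt or Syk. Of these 8 names, 7 had a row of their own among the 33924 genes of the table. No row named Syk was in the table used here, but it held a row named Sykb, which RefSeq (GRCm38.p6) lists as a synonym of Syk and of no other gene. That row is described beside the 7 members and is referred to as the Syk row below.

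The tissue was RPE/choroid of C57BL/6J mice, that is, the retinal pigment epithelium (RPE) and the layer of blood vessels that feeds it. The young group held 3 libraries, from mice labelled 1 to 2 months old. The aged group held 3, labelled 20 to 24 months in the titles and 22 to 24 months in the time label. All mice are labelled male and carry no engineered allele or treatment, although the study's methods include females and give a somewhat higher age for the young mice. Each library came from a pair of eyes, and ribosomal RNA was removed without selection for poly(A) tails.

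The value available for each gene was a single mean over all 6 libraries in normalized counts (baseMean). Young and aged mice enter this mean together, so no difference with age, no value per mouse and no replicate error can be given for any gene. The age comparison itself was computed by the authors and was not analysed here. Levels and their order are therefore descriptions, and none of the differences between genes below could be set against a spread between replicates. In such bulk tissue, a lower level from fewer cells of a type and one from less RNA per cell cannot be told apart. Depth per library is unknown, and the means summed to 19192071 normalized counts.

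Receptors for IgG divide into activating and inhibitory kinds. In the mouse, Fcgr1 encodes the high-affinity receptor, and Fcgr3 and Fcgr4 encode activating receptors of lower affinity. All of them signal through the common γ chain, encoded by Fcer1g, whose cytoplasmic tail holds an immunoreceptor tyrosine-based activation motif (ITAM). Once Src family kinases phosphorylate an ITAM, Syk binds it and passes the signal on. Fcgr2b encodes the inhibitory receptor, whose tail holds an inhibitory motif (ITIM) that recruits phosphatases. Fcgrt encodes the neonatal Fc receptor, which pairs with β2-microglobulin, protects IgG and albumin from breakdown and carries IgG across cell layers. Fcrls encodes an Fc receptor-like protein known as a marker of microglia and related macrophages.

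The motifs that set activating and inhibitory signals apart can be read in the coding sequences of these genes (GENCODE M21, GRCm38, positions counted from the first base of the start codon). The annotation gives Fcer1g coding sequences of 258 and 276 bases, and the motif was found in that of 258. Its end, bases 163 to 258 without the stop codon, is shown with the stretch that matches the ITAM consensus in capitals, and bases 904 to 1011 of Fcgr2b with the stretch that matches the ITIM consensus in capitals.
Fcer1g: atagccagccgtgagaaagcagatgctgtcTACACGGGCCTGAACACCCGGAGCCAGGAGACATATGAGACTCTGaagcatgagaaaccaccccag
Fcgr2b: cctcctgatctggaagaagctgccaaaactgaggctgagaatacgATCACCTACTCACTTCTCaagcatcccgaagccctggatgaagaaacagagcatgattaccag
The ITAM consensus was searched in frame on the coding strand, as codons for a tyrosine, any 2 residues and a leucine or isoleucine, repeated after 6 to 8 residues. Of the members and Syk, only Fcer1g held a match, against 2.93% of the 21739 genes searched. The ITIM consensus is short, and 34.0% of all genes held a match, as did Fcgr1, Fcgr4, Fcer1g and Fcgrt beside Fcgr2b, so a match alone says little.

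Fcgr2b and Fcgr3 share much of their coding sequence, which bears on how their reads were divided. Over the 735 aligned bases of their longest coding sequences, 642 were identical (87.3%). For comparison, Fcgr4 was identical to Fcgr3 at 65.5% and to Fcgr2b at 64.6% of aligned bases. The longest run shared without a mismatch was 129 bases, longer than the read length of 100 bases. It is printed here with its flanks, bases 266 to 418 of the Fcgr2b coding sequence and bases 251 to 403 of that of Fcgr3, with the bases that differ in capitals.
Fcgr2b: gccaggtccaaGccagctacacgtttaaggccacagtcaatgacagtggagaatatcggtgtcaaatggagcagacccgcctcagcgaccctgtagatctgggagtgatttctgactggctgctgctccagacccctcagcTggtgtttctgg
Fcgr3: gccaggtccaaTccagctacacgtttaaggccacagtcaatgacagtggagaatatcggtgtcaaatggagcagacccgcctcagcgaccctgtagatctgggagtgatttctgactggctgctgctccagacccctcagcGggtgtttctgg
Identity was highest in the middle of the Fcgr2b coding sequence and absent at its end, where the printed inhibitory motif lies.

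**Figure D1:**
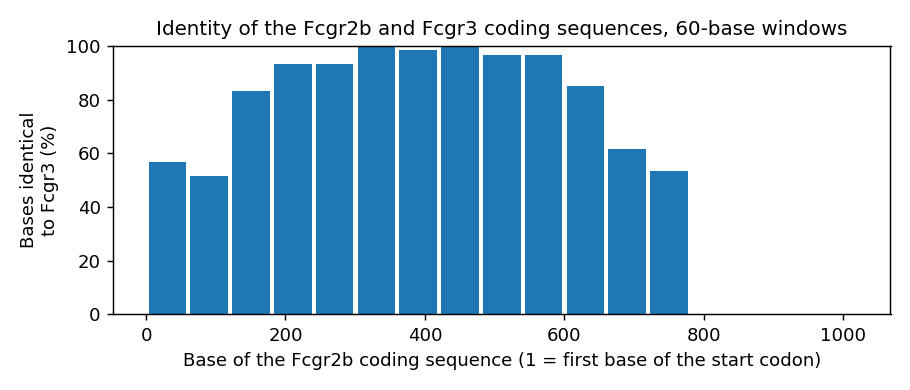
Percentage of bases of each 60-base window of the Fcgr2b coding sequence that are identical to the aligned base of Fcgr3; the horizontal axis counts bases from the start codon. Windows between bases 301 and 480 lie between 98.3% and 100%, and no base of the 4 windows from base 781 on is aligned.

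Words of 31 bases were used to measure how much of each gene is its own. Of the 1733 words in Fcgr3 transcripts, 86.6% occurred in no other gene, and the 233 that did not were all shared with Fcgr2b. The Fcgr2b transcripts had 94.2% of 5609 words to themselves. All words of Fcgr1, Fcer1g and Fcrls were unique, and Fcgr4 (98.7%), Fcgrt (98.4%) and Syk (99.97%) were nearly so. With words of 100 bases, the unique share was 97.5% for Fcgr3 and 98.6% for Fcgr2b. The tool used for quantification divides ambiguous reads between genes, so part of the reads of this pair could have been assigned to either gene.

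Of the activating receptors, Fcgr3 was by far the most abundant. Its pooled mean was 1451 normalized counts, against 306 for Fcgr1 and 208 for Fcgr4. Because a longer transcript gives more reads, genes were compared by the mean divided by the length of the longest annotated transcript, in normalized counts per kb. On that scale Fcgr3 stood at 1077, Fcgr4 at 165 and Fcgr1 at 118 normalized counts per kb. Fcgr3 was thus 6.52 times Fcgr4 and 9.10 times Fcgr1 per kb, and with coding lengths in place of transcript lengths these ratios were 6.52 and 7.17. Without division they were 6.99 and 4.74. Among the 22866 genes with a mean above 0 and a known length, 95.9% lay below Fcgr3, 70.3% below Fcgr4 and 64.1% below Fcgr1.

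The inhibitory receptor Fcgr2b had a pooled mean of 702 normalized counts, or 198 per kb, and 73.8% of genes lay below it. Per kb of longest transcript, Fcgr3 exceeded it 5.44-fold and the 3 activating receptors together 6.87-fold. This ratio depends on the length chosen, because the longest Fcgr2b transcript has 3544 bases but only 1020 coding bases. Per kb of coding sequence, the 3 activating receptors together were 3.40 times Fcgr2b, against 2.80 times without division by length, and Fcgr2b was 22.7% of the sum of the 4 receptors in place of 12.7%. Under either length Fcgr3 held more than any other receptor of the 4, with 69.1% of the sum per kb of transcript and 59.8% per kb of coding sequence.

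Fcer1g, the chain that the activating receptors share, had a pooled mean of 332 normalized counts. Its longest transcript has only 683 bases, so per kb it reached 487, above all members except Fcgrt and Fcgr3. The summed level of the 3 activating receptors was 2.80 times that of Fcer1g per kb, 1.94 times per kb of coding sequence and 5.91 times without division by length. Coding lengths here and elsewhere are those of the longest coding sequence, 276 bases for Fcer1g. Per kb of transcript, 89.0% of genes lay below Fcer1g.

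Fcgrt had the highest level of the group on every scale used. Its pooled mean was 3696 normalized counts, or 2088 per kb, and 98.3% of genes lay below it. That was 1.94 times Fcgr3 and 17.6 times Fcgr1 per kb, and 2.55 and 12.1 times without division by length. Its partner B2m, which also pairs with MHC class I molecules, stood at 12527 per kb, 6.00 times Fcgrt, at 9.04 times per kb of coding sequence and at 2.91 times without division by length.

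Fcrls, the receptor relative, had a pooled mean of 842 normalized counts and 371 per kb, with 85.1% of genes below it. The Syk row had a pooled mean of 691 normalized counts. With its longest transcript of 5363 bases this gave 129 per kb, with 65.7% of genes below it.

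The order per kb of longest transcript was Fcgrt, Fcgr3, Fcer1g, Fcrls, Fcgr2b, Fcgr4, Syk and Fcgr1. The first 3 kept their places when the union of all exons or the coding length was used. With the union of exons, however, Fcer1g stood at 380 per kb against 361 for Fcrls. The lower places did not hold: Syk moved from 129 to 73.9 per kb with the union of exons and to 366 with the coding length, and Fcgr2b from 198 to 121 and to 688. By coding length, Fcgr2b also passed Fcrls, at 688 against 552 per kb. The order of the last 5 genes is therefore not established by these values, nor is the place of Fcer1g above Fcrls. Without division by length, the order was Fcgrt, Fcgr3, Fcrls, Fcgr2b, Syk, Fcer1g, Fcgr1 and Fcgr4, with Fcer1g at 0.395 times the mean of Fcrls and 0.473 times that of Fcgr2b. The undivided means would be the levels if the authors' values were already scaled by length, as the TPM that their methods name are.

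**Figure D2:**
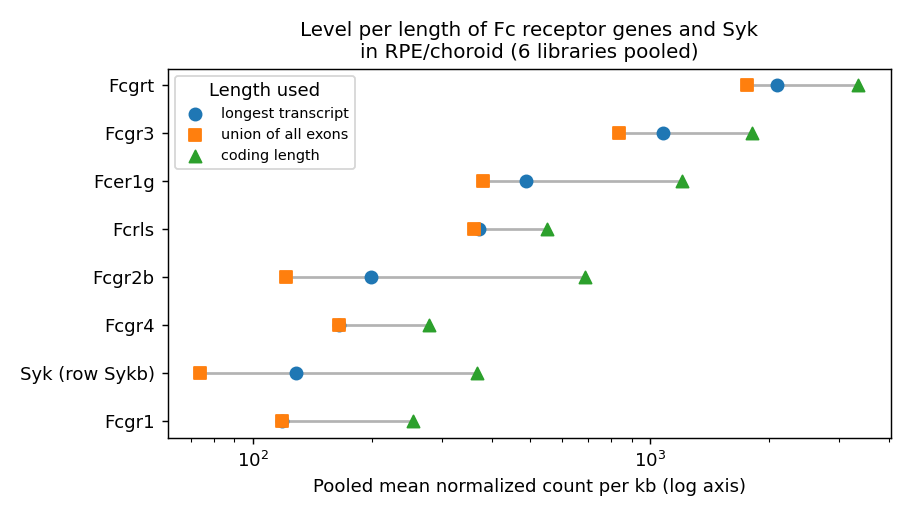
Pooled mean of the 6 libraries in normalized counts per kb (horizontal log axis) for each gene, with a marker for each of the 3 lengths used and a grey line joining them; there are no error bars because each gene has 1 pooled value. Fcgrt and Fcgr3 lie to the right of the other genes under each length, and the markers of Fcgr2b and Syk are spread widest.

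The genes lie on 4 chromosomes (GRCm38, GENCODE M21). On chromosome 1, Fcgr2b (170958617 to 170976547, minus strand), Fcgr4 (171018920 to 171029761, plus strand), Fcgr3 (171051174 to 171064935, minus strand) and Fcer1g (171229572 to 171234365, minus strand) lie within 275.7 kb. Gaps of 42.4 kb and 21.4 kb separate the receptor genes of this cluster, and a gap of 165 kb lies between Fcgr3 and Fcer1g. Their levels per kb nevertheless ranged from 165 for Fcgr4 to 1077 for its neighbour Fcgr3. Fcrls (87250758 to 87263738) and Fcgr1 (96282909 to 96293969) are on chromosome 3, Fcgrt is on chromosome 7 (45092990 to 45103851), all on the minus strand, and Syk is on chromosome 13 (52583173 to 52648792, plus strand). Antisense genes overlap Fcgr2b (Gm38204) and Fcgrt (Gm45669). The kit keeps strand, but whether the counting used it is not given in the sources used here. On the same strand, where strand cannot separate reads, the small RNA genes Gm26110 (snRNA) and Mir6546 (miRNA) overlap Fcgr4 by 165 bases and Fcgr3 by 62 bases. These overlaps are of whole gene spans, introns included. In the Fcgr4 transcripts, 16 words of 31 bases and 0 of 100 occurred in other genes, fewer than a stretch of 165 bases holds.

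The rest of the pathway was described by 89 genes in 7 lists, all of which had a row. A pooled mean of at least 30 normalized counts was reached by 73 of the 89, against 45.6% of all rows and 66.9% of protein-coding genes. All 7 members and the Syk row were above 100, a level reached by 37.9% of all rows and 58.1% of protein-coding genes. None of the 89 was listed at 0.

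Among other Fc receptors and partners, 5 of 13 genes reached 30. B2m was the highest, followed by Trim21, the cytosolic antibody receptor, at 191 per kb. Fcer1a and Ms4a2, subunits of the high-affinity IgE receptor of mast cells, stood at 71.7 and 15.8 per kb. Pigr, which carries IgA across epithelia, had 2.90 per kb, Fcrl5 had 1.69 and Fcrl6 had 0.160.

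Of the ITAM adaptors and chains, Tyrobp (DAP12), the adaptor of many myeloid receptors, stood at 2898 per kb, 5.95 times Fcer1g, at 3.41 times per kb of coding sequence and at 5.20 times without division by length. Hcst (DAP10), a signalling adaptor whose motif is not an ITAM, was next at 71.6 per kb. The 4 chains of lymphocyte receptors on the list lay between 4.55 (Cd3e) and 54.6 (Cd79b). Without division by length, Hcst had 31.7 normalized counts, below the 78.1 of Cd79b. Among ITAM-coupled receptors of myeloid cells, Clec7a (dectin-1) had 1151 per kb, against 1077 for Fcgr3, and 3579 against 1811 per kb of coding sequence. Clec4d had 395 per kb of transcript and 795 per kb of coding sequence, a scale on which it was not the second of the list. In this list 8 of 10 genes reached a mean of 30, and Trem1 and Oscar, at 2.52 and 1.82 per kb, did not.

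The Src family kinases that act ahead of Syk were led by Src (347 per kb) and Yes1 (324), which many cell types express. Lyn, a member expressed in myeloid and B cells, stood at 247, above the Syk row. Zap70, the Syk relative of T cells, had 22.4 per kb, below the 129 of the Syk row. Of the 31 genes for this relative and downstream steps, 30 reached a mean of 30, with Cyba, a subunit of the phagocyte NADPH oxidase, at 2609 per kb and Pik3r1, a regulatory subunit of PI3-kinase, at 857.

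Inhibitors of the pathway were also present, with 12 of 13 genes at 30 or more. Ptpn11 (SHP-2) had 547 per kb and Ptpn6 (SHP-1) had 306. Inpp5d (SHIP-1), the phosphatase that Fcgr2b recruits, had 171, against 198 for Fcgr2b, and 236 against 688 per kb of coding sequence. Without division by length the order was reversed, with Inpp5d at 843 normalized counts, against 702 for Fcgr2b and 707 for Ptpn6. All 8 ITIM receptors reached 30. Sirpa, the receptor for CD47, stood highest at 1232 per kb and Pecam1, also an endothelial marker, at 473.

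**Figure D3:**
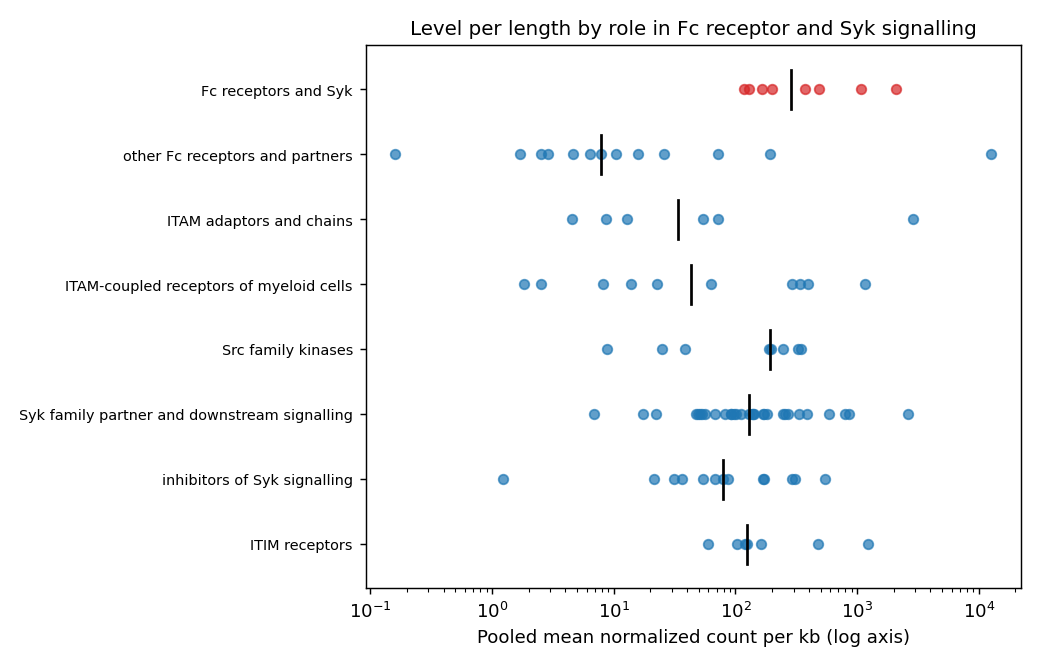
Each point is 1 gene, placed by its pooled mean in normalized counts per kb of longest transcript (horizontal log axis), in rows by role, and the black bars are list medians; the members and the Syk row are in red, and Lilrb4, which had no length, is not drawn. The median of the red points, 284 per kb, lies above the medians of the 7 other lists, which run from 7.78 to 192.

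Markers of the cell types that a scraped RPE/choroid can hold were read in the same way to place these levels. The labelled tissue was present, with Ttr at 83745 and Rpe65, the retinoid isomerase of the RPE, at 23481 per kb, although Best1 had only 33.6. Melanocyte markers ran from 2116 (Tyr) to 27072 (Pmel), and pigment genes are shared by RPE and choroidal melanocytes. Rod photoreceptor markers, of which Nrl was the lowest at 1164, were also high, although the adjoining retina had been removed. Each of these cell types gave markers at levels above those of most Fc receptor genes.

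Macrophage markers were spread widely. All 13 had a mean of at least 30, from Lyve1 at 34.4 to C1qa at 3633 per kb with a median of 541. This range takes in all 7 members and the Syk row, but so does that of the RPE markers, 33.6 to 83745. Of the microglia markers, 4 of 5 had a mean of at least 30, and the median of the list was 58.3 per kb. Tmem119 had 326, whereas Sall1 had 2.60. Endothelial markers ran from 257 (Cdh5) to 1187 (Plvap).

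Markers of other blood and immune cells were read as well. Mast cell markers ran from 71.7 (Fcer1a) to 331 (Cma1). Neutrophil markers ran from 0.315 (Ly6g) to 215 (S100a9), platelet markers from 0.314 (Gp6) to 313 (Pf4), T and NK cell markers from 3.32 (Klrb1c) to 77.7 (Cd4), and B cell markers from 0.850 (Pax5) to 19.1 (Ms4a1). Which cells the RNA of each receptor came from was not tested.

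**Figure D4:**
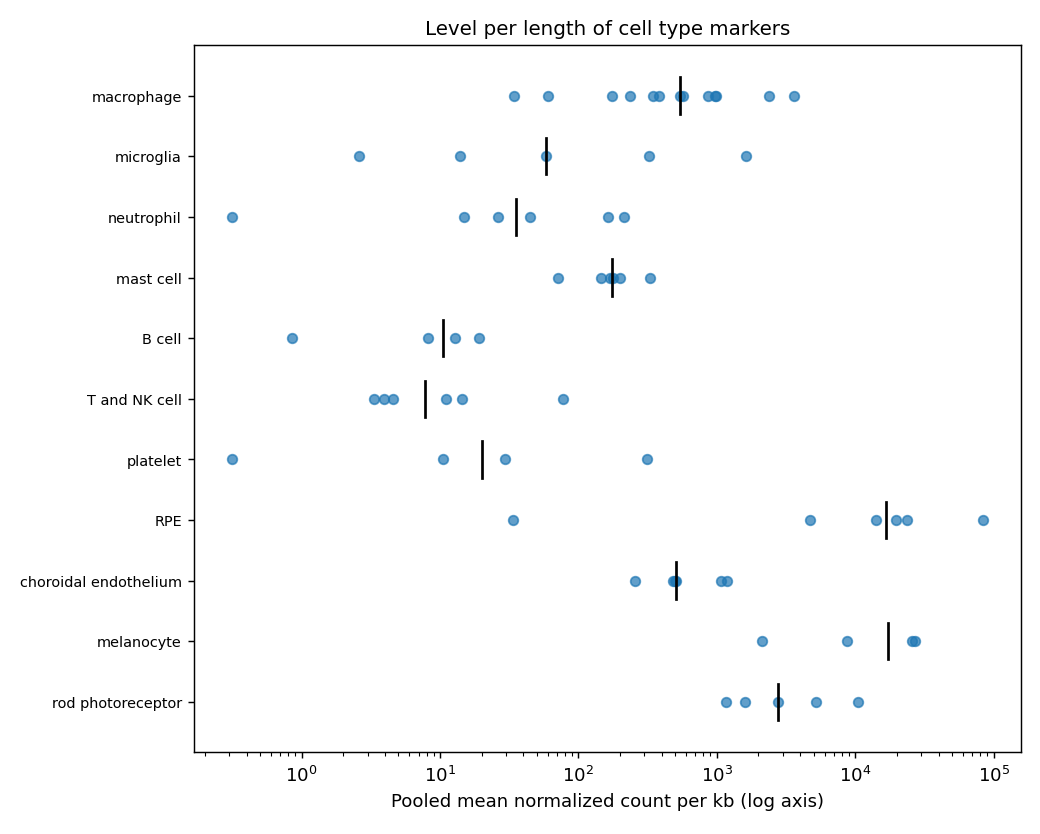
Each point is 1 marker gene, placed by its pooled mean in normalized counts per kb of longest transcript (horizontal log axis), in rows by cell type, with black bars at the medians. Macrophage markers have a median of 541 per kb and B cell markers one of 10.5, while RPE and melanocyte markers lie highest, with medians of 16816 and 17212.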

How the data were processed

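RPE/choroid RNA of 3 young and 3 aged mice was sequenced as 100-base read pairs. The authors trimmed reads with BBDuk, mapped them with STAR to Ensembl GRCm38 transcripts (release 82), quantified TPM with Sailfish, turned these into normalized counts by total count, and ran DESeq2 on what they term read counts. The deposited table holds 1 normalized signal per gene, the authors' mean over all 6 libraries (baseMean). Its other 5 columns hold the authors' comparison of young and aged mice (a log2 fold change, its standard error, a test statistic, a p-value and an adjusted p-value) and were not used. Another 0 columns name a sample. Depth per library and replicate spread are unknown, and no test was run.

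Symbols were matched to GENCODE M21 (GRCm38), with RefSeq synonyms for listed genes, which gave a length to 22866 of 26681 genes with a mean above 0. TPM are already scaled by length, but the mean rose with length: among protein-coding genes with a mean of at least 30, its median was 360 in the 3201 genes with the shortest transcripts and 997 in the 3200 with the longest. It was therefore divided by the length of the longest transcript. After division the medians were 234 per kb in the former and 147 in the latter, so the division did not level them and genes with short transcripts, such as Fcer1g, stood higher per kb on the whole. Shared words and identities were computed from GENCODE transcripts (Biopython 1.88, pandas 2.3.3) with functions tested on simulated data. The members and lists were chosen with earlier results of these data known. Genes named are the members and, by rule, the 2 highest of each pathway list per kb and the highest and lowest of each marker list. Fcer1a, Ms4a2, Pigr, Fcrl5, Fcrl6, Cd3e, Cd79b, Trem1, Oscar, Lyn, Zap70, Inpp5d, Rpe65 and Tmem119 were named after their values were seen, where the rule did not name them. Some listed genes are not reported here.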

Additional observations from a re-analysis of the deposited data

How the results depend on the processing

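No paired analysis was possible because each gene has 1 mean over all 6 libraries, and leaving out each replicate was not possible for the same reason. The level per kb moved by over 1.5 times for 7 of 8 genes when coding length replaced the longest transcript (1.49 to 3.47 times) and for 2 of 8, Fcgr2b and Syk, with the union of exons (0.573 to 1.00 times). The larger values are built into a shorter divisor. The share of genes below a member stayed within 1.5 times under each alternative run, but shifted by -25.9 to 9.34 percentage points when the mean was not divided by length, by -15.6 to -0.760 among genes with a mean of at least 10, by -11.0 to -0.350 among protein-coding genes and by 0.348 to 7.15 with no filter on low values. Pathway genes detected numbered 82 of 89 at a minimum of 10 and 58 at 100, against 73 at 30. The shares of protein-coding genes at these minima were 72.4%, 58.1% and 66.9%. Those of all rows were 53.0%, 37.9% and 45.6%. Words of 100 bases lowered the number shared with other genes from 233 to 44 for Fcgr3 and from 324 to 82 for Fcgr2b. Without values per library, differences between genes cannot be judged against error at any depth.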
